A study of Mus musculus with 21 samples.

Results

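The 13 mammary tumours described here are those hybridised on slides 1 to 4 of a set of Agilent 2-colour arrays. They were chosen by the slide alone, 1 array for each tumour, and make up 13 of 20 tumours and 13 of 21 arrays. Each came from a separate mouse with 1 transgene under the MMTV promoter, a mouse mammary tumour virus promoter that is active in mammary epithelium and in some other epithelia. The transgene was ATX (autotaxin, an enzyme that makes lysophosphatidic acid, LPA) in 5 mice, the LPA receptor LPA1 in 2, LPA2 in 2 and LPA3 in 4. On every array tumour RNA was labelled with Cy5 and total RNA of a whole mouse with Cy3, with no dye swap. Normal mammary gland was not on these arrays, so each value sets a tumour beside a mixture of all organs. Values are deposited log2 ratios of tumour over that reference, so that 1 is a 2-fold difference. The log base was taken as 2, since neither the table nor the labels state it. The age and strain of the mice, and what the reference mouse or mice were, were not given in the labels.

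A transcript lies above a whole-mouse reference when it makes up a larger share of the tumour RNA than of the whole-mouse RNA. It lies below the reference when that share is smaller. Mammary glands hold luminal cells, which line the ducts and make milk, and basal myoepithelial cells, which squeeze the milk out. Prolactin switches on the casein genes through the transcription factor Stat5, and the ETS factor Elf5 acts beside it in the alveolar cells. Tumours also hold macrophages, lymphocytes, fibroblasts and vessels, and their RNA is mixed with that of the epithelium.

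All 13 tumours lay above the reference for both markers used to check the tissue. Csn3 (kappa-casein) had log2 ratios from 0.62 in LPA2 3 to 6.84 in ATX 1, with a median of 5.34. For Elf5 the ratios ran from 1.26 in ATX 3 to 6.03 in ATX 1, with a median of 3.42. The array labelled LPA2 3 stood apart from the others. Over genes it correlated with the other 12 at r = 0.41 to 0.54, against 0.49 to 0.86 among those 12, all of them ratios to whole-mouse RNA. It had 317 genes over 3 log2 units above the median of the others, against 55 to 151 such genes in each of the other 12. Transcripts of salivary and lacrimal glands, listed after the values were seen, had a median of 4.82 there. For these transcripts LPA3 5 was at −0.08, and the rest were at −3.33 to −2.18. Caseins and mitosis genes were lowest in LPA2 3, while Elf5 was at 4.24 there and Krt18 at 2.73. What tissue that sample held was not tested, and counts that differ without it are given both ways. Within an array the SD of the ratios was 1.195 to 1.432 in the 13 tumours, against 0.825 to 0.903 in the 7 tumours on slides 5 and 6. Every array had a median of 0. Precision is limited by the number of arrays.

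The first comparison asked which genes stood on the same side of the reference in every tumour. Values in every tumour were available for 19069 genes. The ratio was positive in all 13 tumours for 1256 of them (6.59%) and negative in all 13 for 2125 (11.1%). Another 15427 (80.9%) were above it in some tumours and below it in others. A gene was called when its sign was the same in all 13 tumours, its mean was at least 1 in size and its limma adjusted p, for a mean of 0, was under 0.05. By this rule 466 genes (2.44%) were called higher and 1596 (8.37%) lower. The largest adjusted p among them was 0.0203 for higher and 0.0158 for lower genes, so that sign and size, and not the p, set both counts. On limma's adjusted p alone, 4179 genes were higher and 4881 lower. Every count of called list members below stands beside the 2.44% and 8.37% of all genes.

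**Figure D1:**
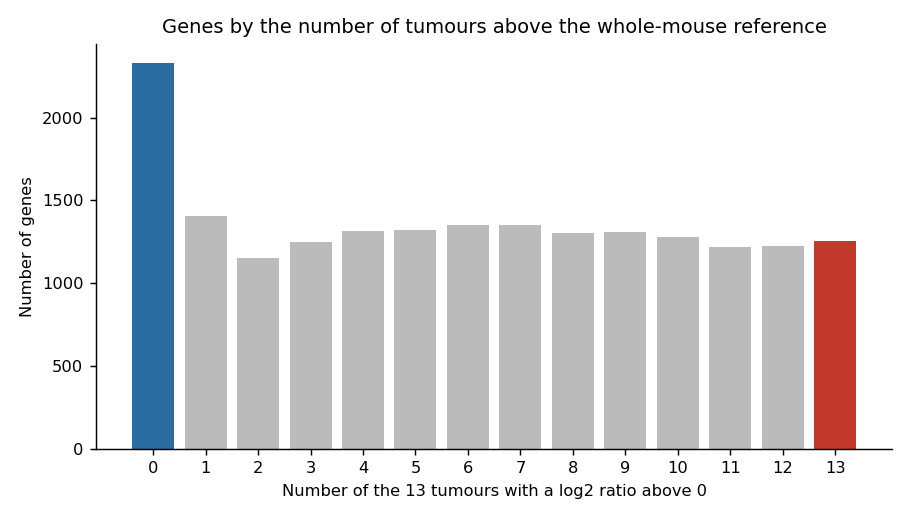
Number of genes (vertical axis) by the number of the 13 tumours in which the log2 ratio to the whole-mouse reference was above 0 (horizontal axis). The bar at 13, in red, holds 1256 genes, and the bar at 0, in blue, holds 2328 genes, some of which have a ratio of exactly 0 in a tumour; the bars between hold 1154 to 1403 each.

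Lower genes were further from the reference than higher ones. The median size of the mean was 2.08 for genes called lower and 1.42 for genes called higher. A mean of 4 or more in size was found for 135 lower and 5 higher genes. As deposited every array is centred on its median, and the split depends on that centre. Of all calls 22.6% were higher, against 35.3% with each array centred on its mean, which moved the median of all genes by 0.15, and 15.2% with it centred on ribosomal protein genes, which moved it by −0.12. Without LPA2 3, 536 genes (2.81%) were called higher and 1758 (9.22%) lower. The sign rule is looser when fewer tumours must share a sign, so counts without that array can rise for this alone. The median SD over the tumours was 0.649 for genes called higher and 0.665 for those called lower. In a bulk tumour, fewer cells of a type and less RNA per cell cannot be told apart, and this holds for every lower value below. The reference has no samples of its own, so the test leaves out its spread and keeps any dye bias.

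**Figure D2:**
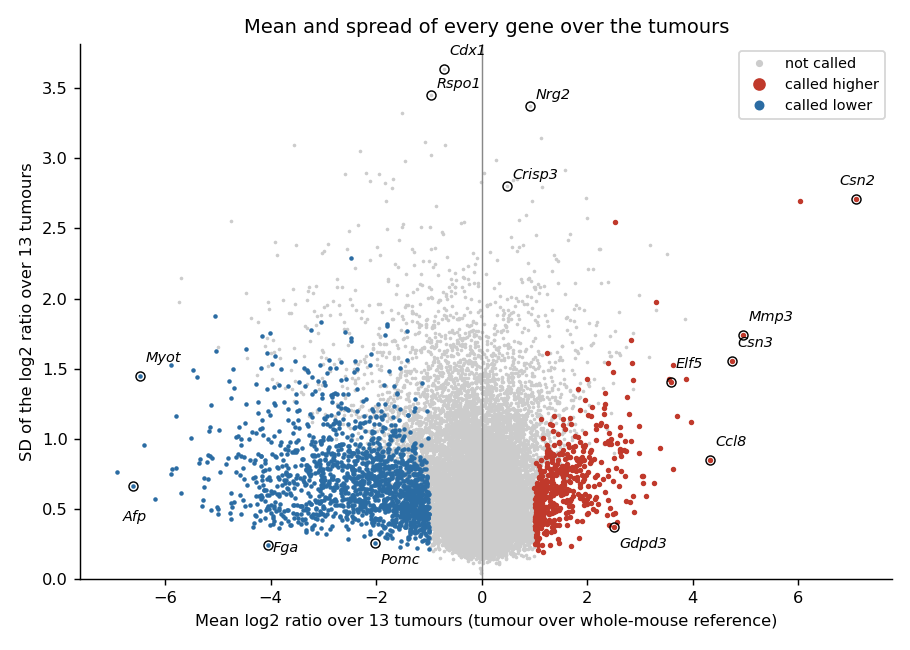
Mean log2 ratio of each gene over the 13 tumours (horizontal axis) against its SD over the tumours (vertical axis), with the 466 genes called higher in red and the 1596 called lower in blue. Csn2, at a mean of 7.09 and an SD of 2.71, stands at the far right, and Fga, at −4.06 with an SD of 0.243, is among the evenest of the genes called lower.

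Milk proteins headed the higher genes. Csn2 (beta-casein) ranged from 0.84 in LPA2 3 to 9.80 in ATX 1, with a median of 8.17. Only LPA2 3 and LPA3 5, at 2.08, were below 6, and the other 11 tumours lay between 6.25 and 9.80. The mean was 7.09 ± 2.71 (SD, n = 13; SE 0.673, adjusted p = 4.37e-07 in limma), and 7.61 without LPA2 3. The alpha-S2-like casein Csn1s2a ran from 0.15 in LPA2 3 to 8.71 in LPA1 3, with a median of 6.45, and Csn1s1 (alpha-S1-casein) from 0.65 in LPA2 3 to 5.39 in ATX 1, with a median of 4.42. Both were lowest in the same array, neither of the 2 features of Csn1s1 was above 0 in all 13 tumours on its own, and the means were 6.04 ± 2.7 (adjusted p = 2.42e-06) and 3.63 ± 1.53 (adjusted p = 1.39e-06). Csn3 averaged 4.75 ± 1.55 (adjusted p = 8.07e-08). In all, 4 of 5 caseins were called higher, against 2.44% of all genes. Csn1s2b, the fifth, was above the reference in 12 tumours with a mean of 2.39 ± 2.12. The median of the casein means was 4.75, where the median over all genes was 0.00. The list also had 4 of 5 members called without LPA2 3, with a median of 5.10.

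Start regions were available for 3 of the 5 caseins, Csn1s1, Csn1s2a and Csn2, and not for Csn3 and Csn1s2b. These 3 regions are shown because their genes belong to the highest means of the set and sit in the same cluster on chromosome 5. Each is 300 bases, from 250 before to 50 after the annotated gene start, 5′ to 3′ on the gene's strand, from RefSeq on build GRCm38.p6. They lie at chr5:87665958-87666257 on the plus strand, chr5:87774200-87774499 on the plus strand and chr5:87699376-87699675 on the minus strand. Capitals mark TTCNNNGAA, the letters that STAT factors are known to bind, read on both strands.
Csn1s1: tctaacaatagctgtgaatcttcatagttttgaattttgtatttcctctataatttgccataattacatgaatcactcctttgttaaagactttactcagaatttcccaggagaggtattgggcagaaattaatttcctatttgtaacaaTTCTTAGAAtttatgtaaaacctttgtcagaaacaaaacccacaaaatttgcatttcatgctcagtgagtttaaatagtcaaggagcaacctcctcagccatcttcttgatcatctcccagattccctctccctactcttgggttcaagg
Csn1s2a: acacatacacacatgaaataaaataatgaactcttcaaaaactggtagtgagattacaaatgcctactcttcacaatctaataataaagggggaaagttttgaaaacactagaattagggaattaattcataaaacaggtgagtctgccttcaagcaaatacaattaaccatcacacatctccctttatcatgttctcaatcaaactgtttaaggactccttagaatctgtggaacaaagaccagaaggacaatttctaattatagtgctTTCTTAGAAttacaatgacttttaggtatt
Csn2: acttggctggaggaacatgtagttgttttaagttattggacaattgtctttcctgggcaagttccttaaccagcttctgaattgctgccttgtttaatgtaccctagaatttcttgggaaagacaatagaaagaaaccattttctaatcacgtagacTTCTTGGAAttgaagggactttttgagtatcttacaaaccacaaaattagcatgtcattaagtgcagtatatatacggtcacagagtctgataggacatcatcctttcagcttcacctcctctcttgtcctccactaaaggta
Each of the 3 windows held 1 match. The letters occurred in 7.75% of the 15293 windows of measured genes with an entry in the table, in 10.3% (37 of 360) of those of genes called higher and in 7.18% (90 of 1254) of those of genes called lower. A match describes the letters of a window and is not a bound site.

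Other milk proteins were high in most tumours but not in all. Of 11 measured whey and other milk proteins 0 were called by the sign and size rule, while all 11 had a mean above 0 and 10 passed limma's adjusted p alone (11 at an unadjusted p under 0.05). The list median was 2.46. The mucin-like milk protein Glycam1 averaged 3.51 ± 2.32 and was above the reference in 11 tumours. Wap (whey acidic protein) ran from −1.52 in LPA3 5 to 5.41 in LPA1 4, with a median of 4.28. It was below 0 in LPA3 5, LPA3 3 and LPA2 3 and at 1.77 or more in the other 10, and averaged 3.19 ± 2.38 (adjusted p = 0.00039). Lalba (alpha-lactalbumin, the regulator of lactose synthesis) had 2.50 ± 0.9, and its value in LPA2 3 was exactly 0, as deposited. Muc15 and Mfge8, proteins of the milk fat globule, had 3.30 ± 1.92 and 2.46 ± 1.19. Lactoferrin (Ltf) averaged 2.46 ± 1.59, butyrophilin (Btn1a1) 2.44 ± 1.74 and the milk lipase Cel 2.19 ± 1.83. Without LPA2 3, 3 of the 11 were called higher.

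**Figure D3:**
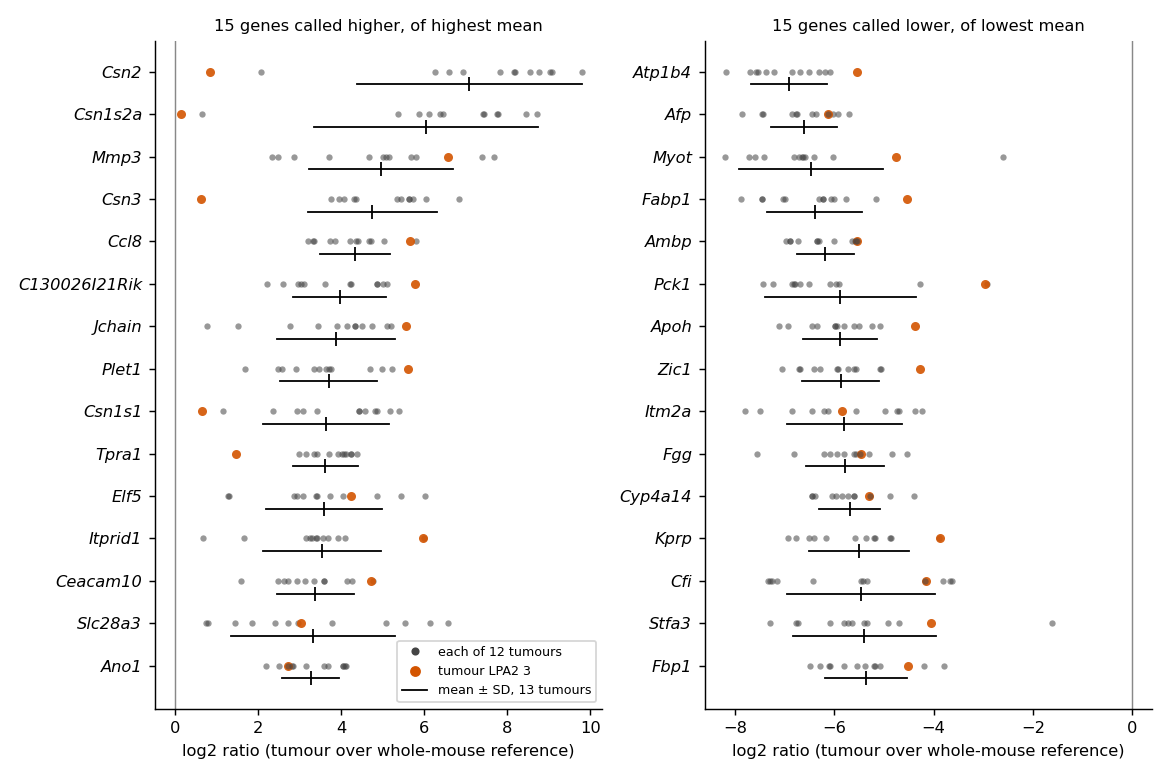
Log2 ratio (horizontal axes) in each of the 13 tumours (points, LPA2 3 in orange) of the 15 called genes of highest mean (left) and the 15 of lowest mean (right), with the mean ± SD as a tick and a line below. The caseins reach the highest ratios, up to 9.80, with LPA2 3 at the lower end, and the genes on the right stay below 0 in all 13 tumours.

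Among the other genes of highest mean were Mmp3, Ccl8 and Jchain. Mmp3 (stromelysin 1, a protease that digests matrix) ranged from 2.34 in LPA3 3 to 7.69 in LPA1 4, with a median of 5.08. LPA3 3, LPA3 5, LPA3 2 and LPA3 1 were the lowest, at up to 3.70, and the other 9 lay above them. It averaged 4.96 ± 1.74 (adjusted p = 1.78e-07). Ccl8, which attracts monocytes, was more even, from 3.20 in LPA3 1 to 5.81 in LPA1 4, with a median of 4.35, and its mean was 4.33 ± 0.848 (adjusted p = 2.94e-10). Jchain, which joins the units of secreted IgA and IgM, had 0.76 in LPA3 5 to 5.56 in LPA2 3, with a median of 4.34. LPA3 5 and LPA3 3 were lowest, at 0.76 and 1.52, and the mean was 3.87 ± 1.43. The other called genes among the 15 of highest mean were C130026I21Rik (3.97 ± 1.12), Plet1 (3.69 ± 1.16), Tpra1 (3.62 ± 0.787), Elf5 (3.58 ± 1.4), Itprid1 (3.54 ± 1.43), Ceacam10 (3.37 ± 0.93), the nucleoside transporter Slc28a3 (3.31 ± 1.98) and the calcium-activated chloride channel Ano1 (3.27 ± 0.686).

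The evenest of the higher genes were of other kinds. Among called genes with a mean of at least 2, the smallest SD over tumours belonged to Gdpd3, an enzyme with lysophospholipase D activity, at 2.50 ± 0.367, with ratios of 1.91 to 3.14. Mpeg1 (perforin 2 of macrophages) had 2.42 ± 0.383, the siderophore-binding Lcn2 2.56 ± 0.404, Krt18 2.49 ± 0.464 and the polyadenylation scaffold Sympk 2.53 ± 0.472. Slamf9 (2.37 ± 0.455), Rin2 (2.01 ± 0.469) and the GPI-anchored Ly6e (2.89 ± 0.476) completed these 8. No tumour was below 1.35 for any of them.

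Krt18, Krt8 and 4 alveolar transcription factors were higher. Krt18, a luminal keratin, ran from 1.46 in ATX 1 to 3.08 in LPA2 4, with a median of 2.59, and its partner Krt8 from 1.05 in ATX 1 to 3.16 in LPA1 4, with a median of 2.03. ATX 1 was lowest for both, and no tumour was near 0. Krt18 and Krt8 were called, with Krt8 at 1.97 ± 0.607 (adjusted p = 9.65e-08), while Krt19 (1.56 ± 1.43, above 0 in 11 tumours) and Krt7 (0.79 ± 1.28, 9 tumours) were not. Of 10 measured alveolar regulators 4 were called higher, against 2.44% of all genes. They were Elf5 (adjusted p = 6.51e-07), the AP-2 factor Tfap2c at 2.98 ± 1.09 (adjusted p = 3.46e-07), the ETS factor Ehf at 2.42 ± 0.963 (adjusted p = 9.75e-07) and Cebpb at 1.24 ± 0.808 (adjusted p = 0.000167). Stat5a averaged 1.07 ± 0.848 and was below 0 in LPA3 5 alone. Stat5b (0.07 ± 0.503) and Jak2 (0.19 ± 0.447), which pass on the prolactin signal, lay close to the reference. Cish and Socs2, feedback inhibitors of that pathway, were each above 0 in 7 tumours, with ranges of −3.60 to 1.71 and −2.42 to 1.94.

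Adhesion genes of the epithelium went both ways. Of 20 junction and surface protease genes, 16 had a mean above 0, with a median of 0.92. Esrp1, the epithelial splicing factor, was called at 1.67 ± 0.736 (adjusted p = 3.89e-06). Epcam, an epithelial surface protein, had −0.39 in LPA1 4 to 2.37 in ATX 3, with a median of 1.72. LPA1 4 was the only tumour below 0, and the mean was 1.47 ± 0.77. Cldn3 (1.61 ± 0.856), Cldn4 (2.15 ± 1.74), Cldn8 (1.94 ± 1.92) and Tjp3 (1.40 ± 0.962), parts of tight junctions, were each above 0 in 12 tumours. Cdh1 (E-cadherin) was called lower, from −3.22 in LPA1 4 to −0.09 in LPA2 3, with a median of −1.08. LPA1 4 and LPA3 5, at −3.22 and −3.0, stood below the other 11, which began at −1.39, and the mean was −1.27 ± 0.899 (adjusted p = 0.000334). Of the 10 Cdh1 features, 8 were below 0 in all 13 tumours.

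Basal and hormone-sensing luminal genes differed from tumour to tumour. The basal list had 1 of 16 members called, Itgb4 (an integrin of hemidesmosomes, 1.18 ± 0.508, adjusted p = 5.63e-06). Lamb3, a laminin chain of the basement membrane, had 1.67 ± 0.864 and was above 0 in 12 tumours. Krt5 and Krt17, basal keratins, averaged −1.99 ± 1.57 and −1.69 ± 1.01, and Krt5 was above 0 in ATX 5 alone, at 1.91. The contractile Cnn1 and Myh11 ranged from −4.54 to 1.44 and from −2.98 to 0.81, with 5 tumours above 0 for each. Of 9 hormone-sensing genes 0 were called, although 2 passed limma's adjusted p upward and 0 downward (4 at an unadjusted p under 0.05). Without LPA2 3, 1 was called, Gata3, at 2.33. Gata3 averaged 1.99 ± 1.55, and LPA2 3 was its only tumour below 0, at −2.05. Esr1 (oestrogen receptor) had −0.75 in LPA3 5 to 3.87 in ATX 2, with a median of 1.74, and 8 tumours were above 0 with none between −0.21 and 0.45. Pgr (progesterone receptor) had a median of 0.04 and a highest value of 3.18, in ATX 2. Tnfsf11 (RANK ligand) ran from −1.07 in LPA2 4 to 5.17 in ATX 2.

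Most genes of class I antigen presentation, which shows peptides of the cell to T cells, were higher. Of 10 class I genes, 8 were called higher, with a list median of 2.07, and without LPA2 3 7 were. B2m, the light chain of class I molecules, ranged from 1.06 in LPA3 5 to 4.24 in ATX 2, with a median of 2.94. No tumour was below 1, and the mean was 2.82 ± 0.984 (adjusted p = 2.15e-07). The class I heavy chains H2-D1 and H2-K1 had 2.81 ± 0.551 and 2.22 ± 0.676. The immunoproteasome subunits Psmb8 and Psmb9, which trim peptides for these molecules, had 2.74 ± 0.553 and 2.42 ± 0.505, and the peptide transporters Tap1 and Tap2 1.91 ± 0.571 and 1.84 ± 0.605. Constitutive proteasome subunits stayed near the reference, with 0 of 18 called by limma with the sign and size rule (0 without LPA2 3, and 5 at an unadjusted p under 0.05) and a median of 0.06. Psmb5, the subunit that Psmb8 replaces, was at −0.18 ± 0.241, and Psmb6, which Psmb9 replaces, at −0.20 ± 0.151.

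The start of Psmb9 is shown, chosen after its values were seen, because it lies back to back with the start of Tap1, which rose beside it. The window is at chr17:34187281-34187580 on the minus strand (RefSeq, GRCm38.p6) and shares 275 bases with that of Tap1. Capitals mark CCAAT or its reverse complement ATTGG, the letters known for the factor NF-Y.
Psmb9: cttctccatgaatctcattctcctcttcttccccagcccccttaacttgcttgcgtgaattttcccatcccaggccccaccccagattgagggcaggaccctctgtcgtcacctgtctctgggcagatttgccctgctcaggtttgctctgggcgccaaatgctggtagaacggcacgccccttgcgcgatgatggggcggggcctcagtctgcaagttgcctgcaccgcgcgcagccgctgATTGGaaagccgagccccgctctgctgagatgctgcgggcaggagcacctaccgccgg
CCAAT, on either strand, was in 7 of 8 class I windows and 6 of 7 class II windows, where 38.8% of windows of measured genes held it. The share was 35.6% for genes called higher and 39.7% for genes called lower.

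Class II genes, made by macrophages, dendritic cells and B cells, were called in 6 of 10, with a list median of 1.60. H2-Aa ranged from 1.83 in LPA1 3 to 4.43 in LPA1 4, with a median of 2.92. LPA1 3 was the lowest and the other 12 began at 2.32, with a mean of 3.06 ± 0.684 (adjusted p = 1.86e-09). H2-DMb1 (3.06 ± 0.731) and H2-DMa (1.57 ± 0.774), which load peptides, H2-Ab1 (2.73 ± 0.908), Cd74 (the invariant chain, 1.62 ± 0.797) and the class II transactivator Ciita (2.39 ± 0.984) were the others. H2-Eb1 was at 0.02 ± 0.807, with 7 tumours above 0 and 6 below, and H2-Ob at −0.12 ± 0.344.

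Macrophage genes were higher in all 13 tumours by list median, from 0.62 in ATX 3 to 2.92 in LPA1 4. Of 20 members 10 were called higher, against 2.44% of all genes, and 11 without LPA2 3. Cd14, the endotoxin coreceptor, ranged from 1.67 in LPA2 3 to 4.11 in LPA2 4, with a median of 3.17, and no tumour came near 0. It averaged 3.04 ± 0.734 (adjusted p = 4e-09). The protease Ctss had 2.70 ± 0.916, the membrane proteins Ms4a7 and Trem2 2.62 ± 0.92 and 2.13 ± 0.855, and Mpeg1 2.42 ± 0.383. Mrc1 and Cd163, scavenger receptors of tissue-resident macrophages, were not called. Mrc1 averaged −0.09 ± 1.37 with 4 tumours above 0, and Cd163 −0.86 ± 0.979 with 2.

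Of 32 chemokine ligands 6 were called higher, against 2.44% of all genes. Another 3 were called lower, a share close to the 8.37% of all genes. After Ccl8 came the interferon-induced Cxcl11 (2.85 ± 1.54, adjusted p = 1.93e-05) and Cxcl9 (2.34 ± 1.32, adjusted p = 3.28e-05), which attract T cells through Cxcr3. Cxcl9 was near 0 in LPA3 5 and LPA2 3, at 0.07 and 0.13, and above 1 in the other 11. Ccl5 had 2.63 ± 1.03 and Cxcl16 2.21 ± 0.53. Lower were the thymus and gut chemokine Ccl25 (−1.78 ± 0.514) and the platelet factor Pf4 (−2.36 ± 1.35). The fibroblast chemokine Cxcl12 averaged −1.55 ± 1.44, with 11 tumours below 0.

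Interferon-induced genes were called in 4 of 18 (5 without LPA2 3), with a median of 0.95. Gbp2, a guanylate-binding protein, was even, from 1.57 in LPA3 5 to 3.55 in LPA1 4, with a median of 2.22, and averaged 2.33 ± 0.619 (adjusted p = 1.58e-08). Ddx58 (the RNA sensor RIG-I) had 1.46 ± 0.489 and Oas1a 1.5 ± 0.896. Mx2, in contrast, ran from −0.56 in ATX 1 to 3.07 in LPA1 3, with a median of 0.61. It was over 2 in LPA1 3, LPA2 4, LPA3 1, LPA3 3 and LPA3 2 and under 1 in the other 8. Ifit3 (−0.09 ± 0.817) and Rsad2 (−0.89 ± 1.26) were below 0 in 8 and 10 tumours. The letters GAAANNGAA, known for IRF factors, were in 10 of the 14 windows of this list, in 8.03% of all windows, 11.9% of those called higher and 6.78% of those called lower.

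Lymphocyte genes were mixed. The interleukin 2 receptor chain Il2rb was the 1 called member of 17 T and NK cell genes, at 1.86 ± 1.21 (adjusted p = 0.000127). The NK receptor chain Klrd1 averaged 1.91 ± 1.34 and granzyme B (Gzmb) 0.96 ± 1.07, each above 0 in 12 tumours. Cd8b1 (−2.10 ± 0.915), Cd8a (−0.97 ± 0.525) and granzyme A (Gzma, −2.22 ± 1.55) were below 0 in at least 11. In the B and plasma cell list, Jchain was the 1 called of 10. The B cell protein Ms4a1 had a median of −0.35 and was above 0 in ATX 5 (4.35), LPA1 4 (2.78), LPA2 3 (2.16) and LPA3 2 (1.69). Among dendritic cell genes Clec10a (2.31 ± 1.22) and Itgax (1.67 ± 0.444) were called, 2 of 10, and Clec10a is also made by macrophages.

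Some neutrophil and mast cell genes were lower. Neutrophil genes were called lower in 3 of 11, against 8.37% of all genes, and 8 of the 11 passed limma's adjusted p alone downward. The 3 called were the granule proteins Mpo (−2.34 ± 0.42), Ngp (−2.60 ± 0.613) and Ctsg (−3.31 ± 1.1). S100a9, of mature neutrophils, had −6.13 in LPA1 3 to 1.16 in ATX 5, with a median of −4.18. ATX 5 was the only tumour above 0, and the other 12 were at −2.11 or below. S100a8 was above 0 in ATX 5 (2.64) and LPA3 2 (0.45). Of 9 mast cell genes 5 were called lower, against the same 8.37%. Among them were the carboxypeptidase Cpa3 (−3.27 ± 1.02), the chymase Cma1 (−3.09 ± 0.842) and Hdc, which makes histamine (−2.96 ± 0.707). Kit, which luminal progenitors also carry, averaged 0.91 ± 0.651 and was above 0 in 12 tumours.

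Most genes of liver, muscle, heart, gut, skin and brain were lower. Of 17 liver genes 16 were called lower, against 8.37% of all genes, with a list median of −3.95 and of −4.01 without LPA2 3. Every tumour had a liver median between −4.42 (LPA1 3) and −2.64 (LPA2 3). Fabp1 (fatty acid binding protein of the liver and gut) ranged from −7.88 in LPA1 3 to −4.55 in LPA2 3, with a median of −6.23. LPA2 3 was the least low, and the mean was −6.40 ± 0.953 (adjusted p = 1.17e-11). Ambp (the precursor of alpha-1-microglobulin and bikunin) had −6.18 ± 0.571, fibrinogen gamma (Fgg) −5.79 ± 0.788, prothrombin (F2) −4.75 ± 0.429 and haemopexin (Hpx) −4.72 ± 0.509. Fga (fibrinogen alpha) had the smallest SD of all called genes with a mean of 2 or more in size, with ratios between −4.41 and −3.69 and a mean of −4.06 ± 0.243 (adjusted p = 2.45e-13). Alb (albumin), named here after its value was seen, was lower by less, with a mean of −2.68 ± 0.446. Apoh (−5.88 ± 0.748), complement factor I (Cfi, −5.47 ± 1.49) and the gluconeogenic Fbp1 (−5.36 ± 0.823) were also among the 15 lowest.

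The starts of 3 liver genes are shown for comparison with those of the caseins. Fabp1 and Ambp are the liver genes of lowest mean, and Alb was chosen after its letters were seen. Capitals mark GTTAATNAT (known for HNF1), CCAAT and TATAAA, on either strand. The windows lie at chr6:71199629-71199928 on the plus strand, chr4:63154123-63154422 on the minus strand and chr5:90460620-90460919 on the plus strand (RefSeq, GRCm38.p6).
Fabp1: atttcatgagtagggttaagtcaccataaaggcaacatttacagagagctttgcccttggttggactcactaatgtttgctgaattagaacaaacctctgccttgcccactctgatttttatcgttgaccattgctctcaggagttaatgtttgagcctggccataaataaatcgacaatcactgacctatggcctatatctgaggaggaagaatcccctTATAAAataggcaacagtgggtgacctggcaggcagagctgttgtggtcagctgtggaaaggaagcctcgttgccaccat
Ambp: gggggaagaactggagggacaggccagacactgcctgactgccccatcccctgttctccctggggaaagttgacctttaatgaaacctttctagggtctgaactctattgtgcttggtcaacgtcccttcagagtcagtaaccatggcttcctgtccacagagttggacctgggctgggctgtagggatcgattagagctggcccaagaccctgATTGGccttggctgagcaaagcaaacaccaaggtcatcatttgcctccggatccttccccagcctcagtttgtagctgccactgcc
Alb: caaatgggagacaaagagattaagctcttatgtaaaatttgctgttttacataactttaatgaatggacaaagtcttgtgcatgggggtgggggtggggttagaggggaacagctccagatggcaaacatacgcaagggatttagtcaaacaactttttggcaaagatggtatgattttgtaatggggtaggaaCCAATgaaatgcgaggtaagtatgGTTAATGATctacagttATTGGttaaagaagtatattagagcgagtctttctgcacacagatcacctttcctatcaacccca
GTTAATNAT was in 2 of 15 liver windows, those of Alb and Fga. It was in 0.68% of all windows, 0.833% of those called higher and 1.83% of those called lower. TATAAA was in 4 of 15 liver windows, 12% of all, 12.8% of those called higher and 17.3% of those called lower. CCAAT was in 8 of 15.

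Striated muscle genes were lower too, with list medians of −3.20 for skeletal muscle and −2.99 for heart. Of 20 skeletal muscle genes 17 were called lower, and 18 were below 0 in all 13 tumours. Myot (myotilin, of the Z disc) ranged from −8.20 in ATX 2 to −2.60 in ATX 1, with a median of −6.66. ATX 1 and LPA2 3, at −2.60 and −4.76, were above the other 11, and the mean was −6.47 ± 1.45 (adjusted p = 9.45e-10). Atp1b4, a muscle protein of the Na,K-ATPase beta family, had the lowest mean of all, −6.91 ± 0.766 (adjusted p = 9.74e-13). The fast troponin Tnnt3 (−4.06 ± 0.716), the light chain Myl1 (−4.03 ± 0.728), creatine kinase (Ckm, −3.92 ± 0.875) and the embryonic myosin Myh3 (−3.93 ± 0.502) were similar. ATX 1 had the highest list median of all tumours, −1.04, and the next was LPA2 3 at −2.66. For heart 11 of 12 were lower, with the ventricular Myh7 at −4.33 ± 0.372 and the atrial Myl7 at −3.97 ± 0.614. All 12 were below 0 in every tumour.

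Gut, skin and brain followed. Of 16 stomach and intestine genes 12 were lower, among them the intestinal Fabp2 (−5.26 ± 0.654), lactase (Lct, −4.31 ± 0.399) and the homeobox factor Cdx2 (−4.21 ± 1.07). Cornified epidermis genes were lower in 12 of 17. Loricrin (Lor) averaged −5.14 ± 0.489, hornerin (Hrnr) −5.10 ± 0.865 and Kprp −5.51 ± 1.01. ATX 5 had the highest median of this list, −1.28, and the other 12 tumours were at −2.70 or below. Brain genes were lower in 11 of 15, led by the neurofilament Nefl (−4.39 ± 0.848), the growth cone protein Gap43 (−3.80 ± 0.974) and Nefm (−3.51 ± 0.904). Mobp and Slc17a7, a myelin gene and a transporter of neurons, were at 0.04 ± 0.94 and 0.14 ± 0.921. Of the neural patterning factors, Zic1 was the lowest at −5.87 ± 0.78, while Sox10, which neural crest and mammary progenitor cells share, was called higher at 2.06 ± 0.826 (adjusted p = 1.23e-06), with ratios of 0.85 to 3.61.

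Fetal and imprinted genes and red cell genes were low too. Afp (alpha-fetoprotein, of yolk sac and fetal liver) ranged from −7.87 in LPA1 3 to −5.70 in ATX 3, with a median of −6.45. All 10 Afp features were below 0 in every tumour, and the mean was −6.61 ± 0.662 (adjusted p = 7.22e-13). The imprinted Meg3 (−4.21 ± 0.484), Cdkn1c (−4.03 ± 0.597), Plagl1 (−3.56 ± 0.529) and Dlk1 (−3.53 ± 0.917) were among the 11 of 15 called. Of 10 erythroid genes 7 were lower (8 without LPA2 3), with the anion exchanger Slc4a1 at −3.55 ± 0.65, the haem synthesis enzyme Alas2 at −2.80 ± 0.634 and alpha-globin (Hba-a1) at −2.30 ± 0.691.

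Fibroblast genes lay below the reference by their means and varied. Fibroblast and matrix genes had a median of −1.23, with all 17 means below 0. Of the 17, 4 were called lower (5 without LPA2 3), against 8.37% of all genes. Col1a1 (collagen I) ranged from −4.45 in LPA2 3 to −0.32 in LPA1 4, with a median of −3.28. LPA1 4 and ATX 5, at −0.32 and −0.96, were the least low, and the mean was −3.02 ± 1.29 (adjusted p = 1.76e-06). Ogn (−3.63 ± 0.978) and lumican (Lum, −2.89 ± 1.56), small matrix proteoglycans, and Col1a2 (−2.33 ± 0.87) were the other called genes. Endothelial genes were nearer to 0, with a median of −0.55. Cldn5 (−2.20 ± 0.902) and Tek (−1.14 ± 0.353) were called lower, while Flt1 (0.09 ± 0.292) and Plvap (0.19 ± 0.735) were on both sides of 0. Among proteases and inhibitors, Mmp3 was the 1 called of 16. Mmp13 and Mmp9 averaged −2.50 ± 1.75 and −1.54 ± 1.45, and Timp1 1.07 ± 1.34.

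Adipocyte genes set ATX 1 apart from the other tumours. Adipoq (adiponectin) ranged from −4.64 in LPA1 3 to 1.18 in ATX 1, with a median of −3.66. ATX 1 was the only tumour above 0, ATX 5 and LPA2 3 followed at −1.32 and −1.72, and the other 10 were at −2.96 or below. Plin1, the coat of fat droplets, averaged −3.97 ± 1.53, the brown fat gene Ucp1 −4.53 ± 0.562 and Pck1 −5.88 ± 1.52, the 3 called of 13. The list median was 0.78 in ATX 1, −1.10 in ATX 5 and −4.34 to −2.54 in the other 11. Fatty acid synthesis genes, which alveolar cells and fat both use, were also highest in ATX 1, where Fasn was at 4.40 and the list median at 3.0. Malic enzyme (Me1, 1.54 ± 1.1) and Srebf1 (1.37 ± 0.633) were called higher, 2 of 14. How much fat tissue each sample held was not measured.

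Ribosomal, mitosis and replication lists had medians near 0. Ribosomal protein genes had a median of 0.09, and under limma with the sign and size rule 0 of 14 were called, with or without LPA2 3 (5 had an unadjusted p under 0.05). Mitosis genes had a median of −0.07, with 0 of 21 called by the same rule (3 at an unadjusted limma p under 0.05). Of these genes 1 passed limma's adjusted p alone, with a mean below 0. DNA replication genes had 0.09, with 0 of 20 called by that rule (4 at an unadjusted limma p under 0.05). Of these genes 2 passed limma's adjusted p alone, with means above 0. The proliferation marker Mki67 ranged from −3.33 in LPA2 3 to 0.03 in LPA1 3, with a median of −0.84 and averaged −0.91 ± 0.856. LPA1 3 was the only tumour above 0 and LPA2 3 the lowest. Without LPA2 3 the mitosis median was 0.10, and 1 replication gene was called. The list medians of mitosis genes in single tumours ran from −1.20 in ATX 1 to 1.20 in LPA1 3 once LPA2 3, at −2.17, was left out. The medians over all 13 are smaller than the shifts of 0.15 and −0.12 that other centrings gave. Centred on ribosomal protein genes, the ribosomal, replication and proteasome medians turned negative, and centred on the mean the mitosis median turned positive.

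Secretion and energy genes differed in direction. Protein secretion and folding genes were above the reference in all 13 tumours for 14 of 16 members, and 6 were called (5 without LPA2 3). Xbp1, the transcription factor of the unfolded protein response, averaged 1.98 ± 0.74 (adjusted p = 6.14e-07), the ER proteins Sdf2l1 and Pdia4 1.60 ± 0.613 and 1.37 ± 0.34, and calreticulin (Calr) 1.01 ± 0.246. The list was highest in LPA2 3, at 1.74, against 0.52 to 1.33 in the others. Oxidative phosphorylation genes were below the reference by list median in all 13 tumours. Of 13 members 4 were called lower, against 8.37% of all genes. Sdhb (−1.64 ± 0.574), Uqcrc2 (−1.28 ± 0.402), Ndufv1 (−1.15 ± 0.319) and Cyc1 (−1.10 ± 0.404) belong to complexes of the respiratory chain. In glycolysis Pfkl (1.47 ± 0.636) and the glucose transporter Slc2a1 (1.24 ± 0.898) were called higher, 2 of 11, and the muscle-rich aldolase Aldoa averaged −0.91 ± 0.394 with all 13 tumours below 0.

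The genes of LPA signalling sat on both sides. Lpar1 was called lower, from −2.89 in LPA1 3 to −0.14 in LPA3 5, with a median of −1.94. LPA3 5, LPA1 4 and ATX 5 were nearest to 0, and the mean was −1.70 ± 0.804 (adjusted p = 7.33e-06). Lpar4 (−1.78 ± 0.484) and the LPA phosphatase Plpp1 (−1.27 ± 0.564) were also lower, and the phosphatase Plpp2 was higher at 1.55 ± 0.553 (adjusted p = 6.15e-07). Lpar2 averaged 1.07 ± 0.787 with 11 tumours above 0, and Lpar3 −0.59 ± 1.12, above 0 in LPA3 3 (2.04) and LPA3 1 (1.01) alone. The files do not say whether the features of these genes read the transgenes. Of 11 ErbB receptors and ligands 0 were called with or without LPA2 3 (7 had an unadjusted p under 0.05 in limma). Among them Erbb3 (0.53 ± 0.487, adjusted p = 0.00455) and Tgfa (0.56 ± 0.579, adjusted p = 0.00788) had means above 0 and Epgn (−0.90 ± 0.686, adjusted p = 0.00078) one below it. Xist averaged 0.59 ± 0.426 and the Y-linked Kdm5d −1.5 ± 0.624, with all 13 tumours below 0 for Kdm5d. Of 4 sex-linked genes 1 was lower, and 2 without LPA2 3.

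**Figure D4:**
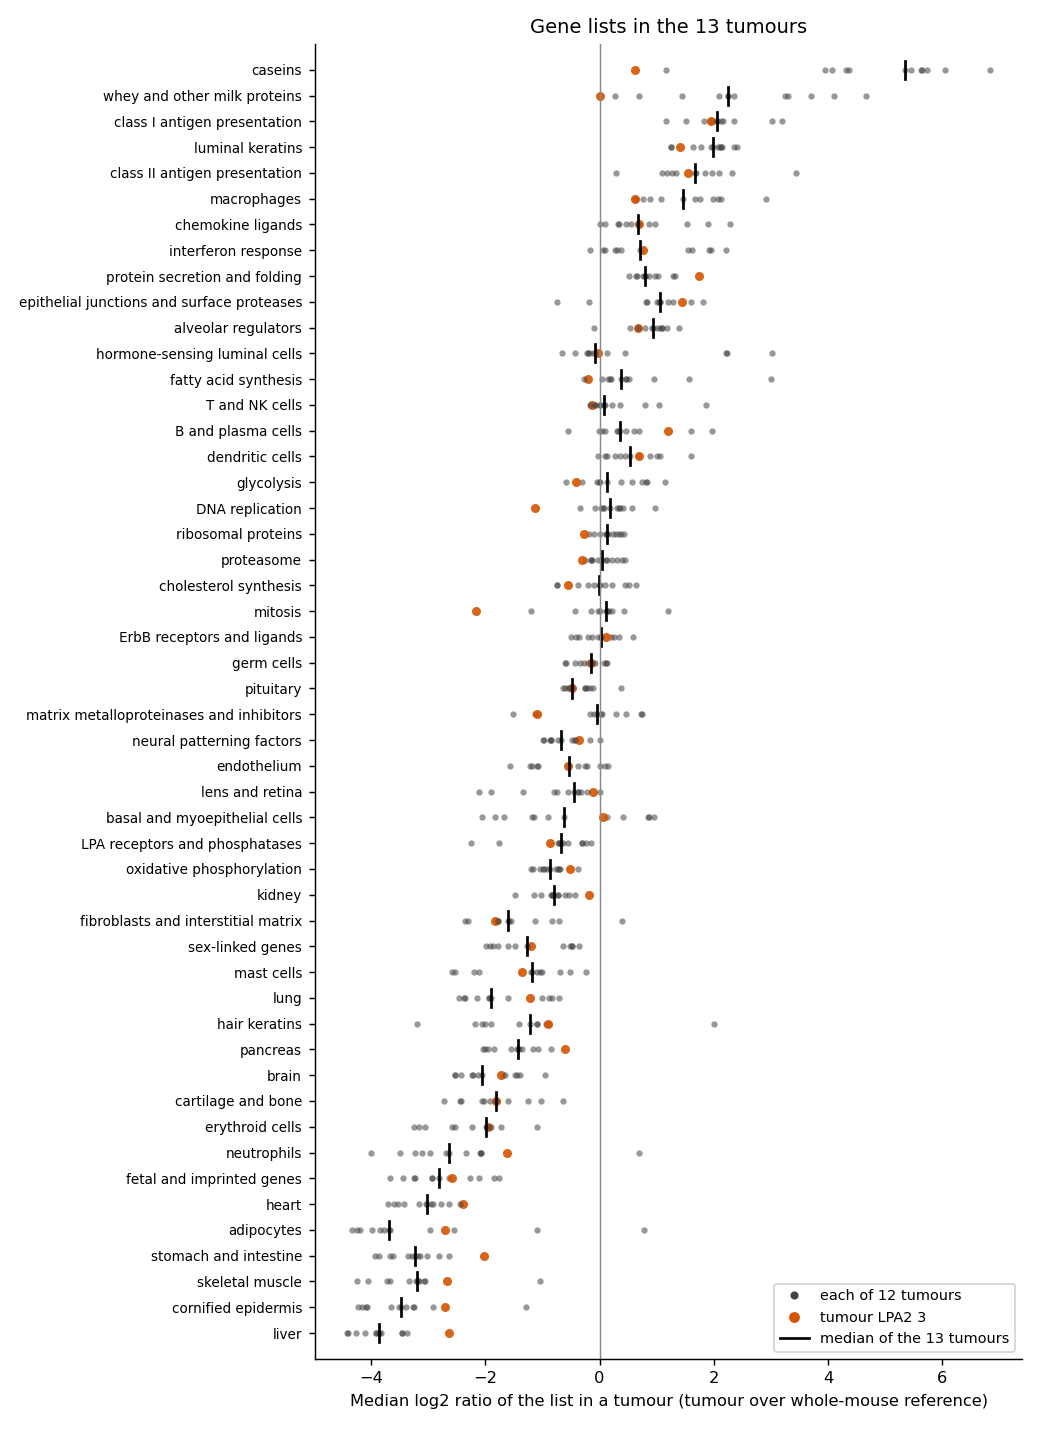
Median log2 ratio (horizontal axis) of each of 50 gene lists (vertical axis, ordered by the median of the gene means) in each tumour: grey points stand for 12 tumours, orange for LPA2 3 and black bars for the median of all 13. Caseins lie above 0 and liver, muscle, heart and gut genes below it in every tumour, and single tumours stand far from the rest for adipocytes, neutrophils and hair keratins.

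How far the tumours differed among themselves depended on the list. The SD of the list median over the 13 tumours was 0.215 for ribosomal proteins and 0.24 for oxidative phosphorylation. It was 0.426 for heart and 0.486 for liver, with medians of the gene means of −2.99 and −3.95. Among mammary lists it was 1.83 for caseins, 1.46 for whey proteins and 1.19 for hormone-sensing luminal genes, but 0.371 for alveolar regulators and 0.389 for luminal keratins. It was 1.47 for adipocytes and 1.2 for hair keratins. Hair keratins were below 0 by median in 12 tumours, down to −3.20 in LPA1 3, and at 2.01 in LPA3 2, where Tchh was at 3.05 and Krt33a at 3.66. Lists without a common sign included basal genes, from −2.06 in LPA1 3 to 0.95 in ATX 4, and matrix metalloproteinases, from −1.52 in LPA3 2 to 0.74 in LPA1 4. LPA1 4 had the highest median of the macrophage, class II, dendritic, T and NK cell, chemokine and fibroblast lists. On the first array of the same tumour the dendritic median was 0.65, below ATX 2, ATX 4, LPA3 2, LPA2 3 and ATX 5. The chemokine median there was 1.73, below ATX 5, while the other 4 medians were again above those of the other 12 tumours.

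The 7 tumours on slides 5 and 6 (LPA1 1, 2 and 5, LPA2 1, 2 and 5, and LPA3 4) were also set against whole-mouse RNA, and the next comparison set the 13 against them. They hold no ATX tumour. Whether the reference was the same preparation on all slides is not in the labels, and slide set, mice and reference preparation cannot be told apart. With the transgene as a covariate, limma called 1644 of 18935 genes (8.68%), 346 higher (1.83%) and 1298 lower (6.86%) in the 13 than in the 7. Because the 7 hold no ATX tumour, this fitted difference compares the receptor tumours alone. Leaving the ATX tumours out therefore changed only the error estimate, and the counts were 296 and 1276. Without the covariate, where the ATX tumours do enter the difference, they were 531 and 1807. For genes called lower in the 13, which chose them, the mean in the 7 was a median of 0.433 times that in the 13, and for genes called higher 0.543 times. Every one of the 7 arrays also had a smaller SD of its ratios, as given above, and the part of that in the differences was not tested.

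Differences given below are the fitted ones, from the receptor tumours, while the means are over all 13 and all 7 tumours. Caseins had list medians of 0.62 to 6.84 in the 13 tumours and 1.57 to 2.17 in the 7. Csn2 averaged 7.09 ± 2.71 in the 13 and 2.09 ± 0.284 in the 7 (SD, n = 13 and 7), with a fitted difference of 4.25 (SE 1.08, adjusted p = 0.0168). LPA2 3 was below all 7 and LPA3 5 among them, at 2.08 against 1.71 to 2.48, and the other 11 were above all 7. Csn3 differed by 2.99 (adjusted p = 0.00342), and Elf5, at 3.58 ± 1.4 against 2.51 ± 0.823, had a difference of 1.5 that did not pass (adjusted p = 0.171). Ccl8 averaged 4.33 ± 0.848 against 1.86 ± 0.593 (difference 3.11, adjusted p = 1.40e-06), and all 13 were above the highest of the 7, 2.58. H2-Aa (2.23, adjusted p = 0.000151), Krt18 (1.84, adjusted p = 1.32e-05) and Ly6e (2.49, adjusted p = 8.26e-07) differed the same way. Class I genes differed upward in 6 of 10 and interferon genes in 7 of 18.

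Organ genes were less far from the reference in the 7. The liver list had medians of −4.42 to −2.64 in the 13 and −1.27 to −0.75 in the 7, and 17 of 17 members differed. Fabp1 averaged −6.40 ± 0.953 against −0.92 ± 0.365 (difference −5.40, SE 0.429, adjusted p = 1.24e-07), and the 2 sets did not overlap. All 20 skeletal muscle genes differed, with list medians of −4.24 to −1.04 in the 13 and −0.87 to 0.42 in the 7. Adipocyte genes differed in 10 of 13. Adipoq averaged −3.05 ± 1.59 in the 13 and 0.24 ± 0.637 in the 7 (difference −3.46, adjusted p = 0.00322). Epidermal loricrin (Lor) had −5.14 ± 0.489 against −1.04 ± 0.396, a difference of −4.24 (adjusted p = 6.15e-09). Ribosomal protein medians were −0.27 to 0.42 in the 13 and 0.02 to 0.28 in the 7, and limma called 0 of 14 (1 at an unadjusted p under 0.05). The Y-linked Kdm5d averaged −1.5 ± 0.624 in the 13 and −1.49 ± 0.573 in the 7, and the difference of 0.05 (SE 0.344) did not pass (adjusted p = 0.958).

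**Figure D5:**
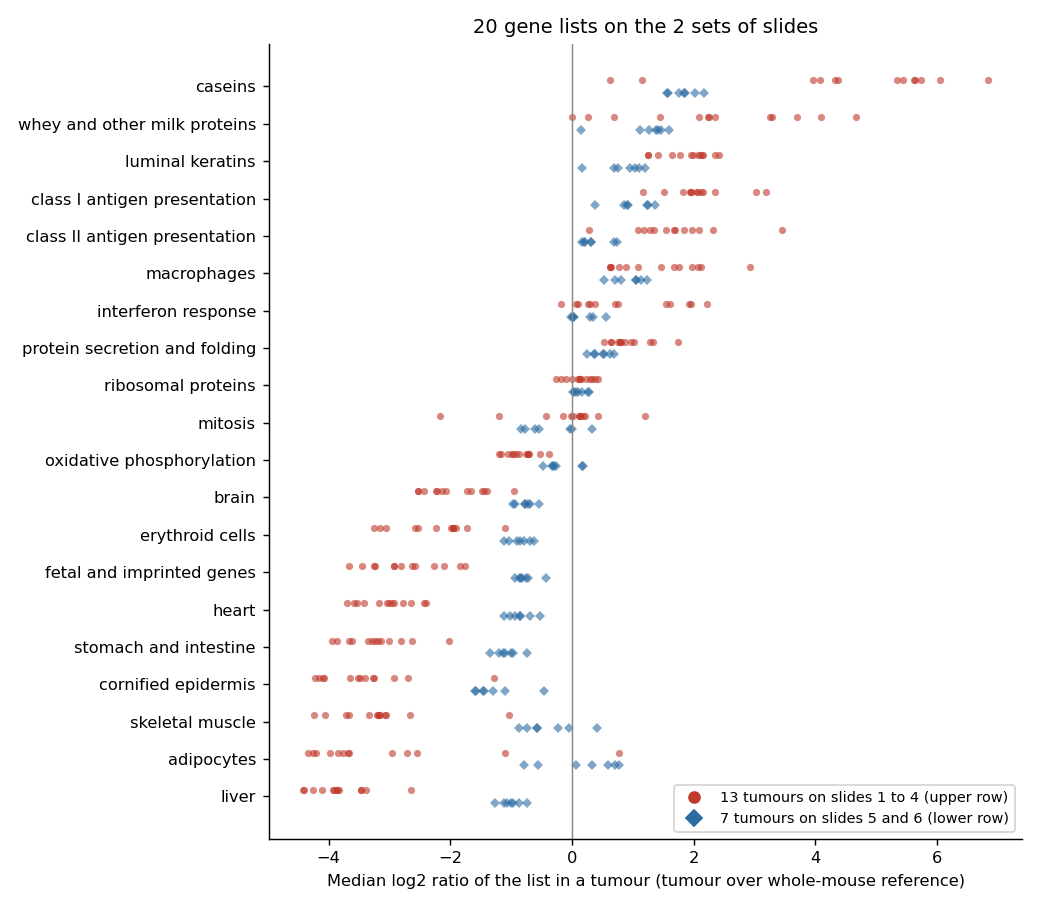
Median log2 ratio (horizontal axis) of 20 gene lists in each of the 13 tumours on slides 1 to 4 (red circles, upper of each line) and the 7 tumours on slides 5 and 6 (blue diamonds, lower). Liver medians lie at −4.42 to −2.64 in the 13 and at −1.27 to −0.75 in the 7, while ribosomal protein genes lie near 0 in both.

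RNA of LPA1 mouse 4 was on 2 arrays, the first on slide 7 and a repeat on slide 4, and the repeat stands for it here. The 2 arrays correlated at r = 0.766 over genes. The repeat had a casein median of 5.64 and the first array 5.88. The liver median was −4.11 on the repeat and −3.56 on the first array, the macrophage median 2.92 on the repeat and 2.88 on the first, and the class II median 3.45 on the repeat and 2.61 on the first. Larger gaps were seen for sex-linked genes (−1.93 on the repeat, −0.22 on the first), erythroid genes (−3.25, −1.73), hair keratins (−2.01, −0.88), lung genes (−2.47, −1.37) and brain genes (−2.22, −1.19). Dendritic cell genes were at 1.61 on the repeat and 0.65 on the first array, and epithelial junction genes at −0.74 on the repeat and −0.03 on the first. Csn2 was at 8.18 on the repeat and 8.36 on the first array. Mmp3 was at 7.69 on the repeat and 7.05 on the first, and Cdh1 at −3.22 on the repeat and −2.59 on the first. Of the 2062 genes called in the 13 tumours, 1988 had the same sign on the first array.

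Letters in the start windows were counted for 3 further motifs, on both strands. GAGGAAGT, known for ETS factors, was in 7.78% (28 of 360) of the windows of genes called higher. It was in 2.47% (31 of 1254) of those called lower and 2.79% of all measured genes. Among mammary lists it was in 0 of 3 casein, 0 of 8 whey and other milk protein, 0 of 7 alveolar regulator and 0 of 3 luminal keratin windows. Macrophage genes had it in 3 of 15 windows and neutrophil genes in 4 of 11. The E-box CAGCTG was in 18.9% of higher, 20.6% of lower and 15.5% of all windows. TTTCCCGC, known for E2F, was in 1.39% of higher, 0.797% of lower and 1.58% of all, and in 0 of 16 mitosis windows, while CCAAT was in 14 of those 16. TATAAA and CCAAT can occur in the same window as the other letters. These shares describe the letters and were not tested, and no match says only that the letters are not in the window.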

How the data were processed

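RNA of 20 mammary tumours, 1 of them on 2 arrays, was extracted with a Qiagen RNeasy kit, per the labels' protocols, and hybridised in Cy5 against Cy3 whole-mouse RNA. The deposited table holds 1 log2 ratio per feature and array, and the values of each array have a median of 0, as read from the table. The log base, scanner settings, background correction and within-array normalization are not given in the sources used here. No signal is in the table, so dim features could not be left out, and no column of per-sample values was left unused apart from the arrays outside each comparison.

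Of 45220 features, 33653 had 1 gene symbol, 56 several and 11511 none. Symbols were updated by gene number to RefSeq GRCm38.p6 (33517 features). Features of a gene were averaged, giving 19087 genes, of which 19069 had values in all 13 tumours. The mean was tested against 0 with limma 3.58.1 (R 4.3.3) with Benjamini-Hochberg adjustment over all genes. Slide 1 holds 1 of the 13 arrays, slide 2 holds 4, and slides 3 and 4 hold 4 each. Tables and figures were made with Python 3.11.15, numpy 2.4.6, pandas 2.3.3 and matplotlib 3.10.9. The 13 and the 7 were compared in limma with the transgene as a covariate. The p-values set a mean or a difference against the spread between these tumours, and the spread of the reference is not in them. In the test against 0 all transgenes were pooled.

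The 13 tumours, the 50 gene lists and the rules were chosen with earlier results of these data known, and the salivary and lacrimal list after its values were seen. Genes named in the text are the 15 called genes of highest and the 15 of lowest mean, the 8 in each direction of smallest SD with a mean of at least 2 in size, the 12 of largest SD, members of each list (all where it has up to 12, otherwise up to 6 of largest size and up to 4 of opposite sign), and Elf5, Csn3, Lpar1, Lpar2 and Lpar3. Other genes are said to be chosen after their values were seen. Of 711 list entries 662 had a feature.

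The test was tried on simulated data of 19069 genes with 67, 67 and 66 genes changed by 1.5, 2 and 4 on the log2 scale. Values were drawn independently from normal distributions with the measured SD of each gene, around 0 for unchanged genes. Limma found 95.5%, 97% and 100% of the changed genes, and the full rule called 85.1%, 88.1% and 100%. Of unchanged genes 7 passed limma and 0 were called. The simulation had no dye bias, no differences shared between genes and far fewer genes off 0 than the arrays. These shares therefore need not hold for the arrays. Alternatives were other centrings, a quantile normalization, other ways to join features, genotypes weighted equally, the slide or the mouse number as a block, slides by themselves, each tumour left out, the first array of LPA1 4, other tumours and a larger size. Mouse numbers recur across genotypes but name separate animals, so they pair no tumours.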

Additional observations from a re-analysis of the deposited data

Results flagged for a closer look

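List medians were examined in 153 groups of 4 or more tumours or pairs of groups. A tumour far from the rest of its group by Dixon's criterion was found in 19 cases, and chance gives about 1 in 20 independent groups. The lists were scored in the same tumours and are not independent, so the 19 cases cannot be set against that rate.

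Among the 5 ATX tumours, ATX 5 stood apart for 5 lists. Its median was 1.67 for macrophage genes (0.62 to 0.88 in the other 4), 1.97 for B and plasma cell genes (0.33 to 0.68) and 0.69 for neutrophil genes (−3.995 to −2.97). It was −0.71 for fibroblast genes (−1.79 to −1.55) and −1.28 for cornified epidermis genes (−4.15 to −3.40). ATX 1 stood apart for fatty acid synthesis genes, at 3.00 against 0.04 to 0.38.

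Among the 4 LPA3 tumours, LPA3 2 was at 0.88 for dendritic cell genes (−0.02 to 0.12 in the other 3), −1.52 for matrix metalloproteinases and inhibitors (−0.10 to 0.04) and −1.27 for sex-linked genes (−0.53 to −0.47). LPA3 5 was at 1.16 for class I genes (2.05 to 2.16), and LPA3 1 at −3.47 for liver genes (−3.90 to −3.86).

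Among the 7 tumours on slides 5 and 6, LPA3 4 was at 0.15 for whey and other milk proteins (1.11 to 1.59 in the other 6), 0.074 for alveolar regulators (0.66 to 0.91), −0.44 for epithelial junctions (0.58 to 0.98), −0.42 for fetal and imprinted genes (−0.93 to −0.73) and −0.12 for fatty acid synthesis (0.71 to 1.14). LPA2 5 was at 1.04 for hair keratins (−1.14 to −0.49), LPA1 2 at 0.48 for dendritic cell genes (0.02 to 0.17) and LPA1 5 at 0.45 for T and NK cell genes (−0.12 to 0.03).

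Basal and myoepithelial genes were above 0 by median in all 5 ATX tumours, with a mean of 0.64, and below 0 in all 4 LPA3 tumours. This pair of groups was picked out by its opposite signs. Of the other receptor tumours, LPA1 3 was at −2.06, LPA1 4 at −0.91 and LPA2 3 at 0.06. LPA3 1, LPA3 3 and LPA3 5 were on slide 2, which held no ATX tumour, and LPA2 4 on that slide was at −0.62. LPA3 2, at −1.68, was on slide 3 with ATX 4 and ATX 5. Transgene and slide thus overlap in part, and the difference was not tested.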

How the results depend on the processing

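The main counts were 466 higher and 1596 lower genes. Within slides 2 and 4 alone, where fewer tumours must share a sign, 937 and 757 genes were higher. Centring arrays on their mean gave 756 higher and 1384 lower genes, and centring on ribosomal protein genes 339 and 1895. A mean of at least 2 in size left 105 higher and 839 lower. All 20 tumours gave 269 and 1019, and the 7 tumours on slides 5 and 6 gave 308 and 961. Leaving out each tumour in turn, which likewise loosens the sign rule, gave 468 to 536 higher and 1599 to 1758 lower genes. With the mouse number as a replicate block (estimated correlation −0.093) the counts were 466 and 1597, and with the slide as a random block 466 and 1591. The medians of 51 lists moved by more than the spread between tumours in the 7 tumours for 22 lists, over all 20 tumours for 6, within slides 2, 3 and 4 for 4, 4 and 6, and with exact zeros as missing for 2 (1 where at least 10 values were left).

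Of named genes with an adjusted p under 0.05, 25 changed the sign of their mean under an alternative, and the cause was not tested. Named genes without such a p also changed sign, 15 under each of the other centrings. In the 7 tumours the means were 0.24 for Adipoq, 0.028 for Car3, −0.011 for Ccr7, 0.36 for Cd163, −0.52 for Cd22, −0.033 for Cd79a, −0.001 for Cxcl11, 0.27 for Epgn, −0.012 for Erbb2, −0.026 for Itgb4, 0.037 for Krt17, −0.11 for Mcm2, −0.013 for Mx2, 0.32 for Myh11, 0.039 for Rps14, 0.44 for Sycp3, −0.064 for Tgfa and 0.54 for Timp4. Within slide 2 they were −0.39 for Esr1, −0.33 for Mzb1, 0.41 for Rsad2, −0.11 for Tnfrsf17 and −0.27 for Xcr1. Within slide 3 they were 0.001 for Krtap3-1 and 0.023 for Tchh.

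Limits apply to every value. No dye was swapped and the reference has no group of its own, so dye bias is in the ratios and the spread of the reference is not in the test. Signals were not analysed here, and a ratio of exactly 0, found for 515 to 761 genes per array, was kept as a value. Where exact zeros were treated as missing, 473 genes were higher and 1618 lower of 15856. Slide and mouse cannot be told apart for a single tumour.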

Other observations

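The genes of largest spread over the 13 tumours had both high and low values. Cdx1, an intestinal homeobox factor, ranged from −9.97 in ATX 3 to 6.14 in ATX 1, with a median of 0.00. Nrg2 (neuregulin 2, an ErbB ligand) ran from −6.30 in LPA1 3 to 5.44 in LPA3 1, with a median of 0.94, and Rspo1 (R-spondin 1, which raises Wnt signalling) from −7.21 in LPA3 3 to 4.96 in ATX 1, with a median of 0.22. Msln (mesothelin) had −4.42 in LPA1 3 to 3.13 in LPA3 5, with a median of 1.06. None of these was called, with means of −0.72 ± 3.64, 0.92 ± 3.37, −0.95 ± 3.46 and −0.70 ± 3.09. The others of the 12 largest SDs were Kcne2, Pate6, Mucl1, Mucl2, Pip, Defb1, Sec14l4 and 9130016M20Rik, with SDs of 2.98 to 3.33.

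Genes of salivary and lacrimal glands, chosen after their values were seen, were highest in LPA2 3 for 19 of 20 members. There the secreted Pip was at 6.67, Dcpp2 at 6.41, the kallikrein Klk1b24 at 7.07 and Crisp3 at 8.06. In the other 12 tumours Pip ranged from −3.76 to 4.33 and Crisp3 from −3.88 to 2.41. In the same array 18 of 21 mitosis genes and 16 of 20 DNA replication genes had their lowest value.

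Other organ lists had fewer members called. Lung genes were called lower in 4 of 9 (median −1.33), pancreas genes in 6 of 11 (−1.51), cartilage and bone genes in 5 of 15 (−1.85) and kidney genes in 2 of 11 (−0.91). Lens and retina genes were lower in 4 of 11 (−0.56), pituitary genes in 1 of 7 (−0.10) and germ cell genes in 1 of 10 (−0.09), where 8.37% of all genes were lower. The pituitary and germ cell shares are close to that of all genes. Scgb1a1, of airway club cells, was even over tumours at −2.53 ± 0.282, as was the pituitary hormone precursor Pomc at −2.01 ± 0.257. Of cholesterol synthesis genes Hmgcs1 was the 1 called lower of 11, a share likewise close to the 8.37% of all genes. The list median was −0.04.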
